A study of Mus musculus with 4 samples.

Results

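The position of 9 chromosome 19 genes of fatty acid desaturation, elongation and esterification was followed at the nuclear envelope (NE) of mouse hepatocytes with and without Tm7sf2. The genes were taken by their symbol in the mm9 annotation and comprise *Scd1*, *Scd2*, *Scd3* and *Scd4*, *Fads1*, *Fads2* and *Fads3*, *Elovl3*, and *Gpam*. All 9 symbols were found once, among 22367 protein-coding genes of the annotation, of which 724 are on chromosome 19. They lie at 4 loci, since the 3 *Fads* genes are neighbors and the 4 *Scd* genes are neighbors, so the 9 genes are not 9 independent positions.

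Primary hepatocytes came from wild type (WT) mice and from *Tm7sf2/NET47* knock-out (KO) mice aged 12 to 16 weeks, both on a C57BL/6 background. Tm7sf2, also called NET47, is a sterol reductase of the endoplasmic reticulum and inner nuclear membrane. By the study's methods, all cells were cultured in serum-free medium with insulin, dexamethasone and epidermal growth factor. Cells of each genotype were transduced for 24 h with a lentivirus and cultured further before DNA was taken. The virus encoded either Dam methylase fused to lamin B1 (Dam-LaminB1) or Dam methylase alone, and this gave 4 libraries. DNA of 4 mice was pooled for each, so there is 1 library of each kind per genotype. No spread between animals can be given and no test between the genotypes was possible, and every difference below is a difference between 2 lists.

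In DamID, Dam methylase tethered to the lamina methylates the adenine of GATC sites in the DNA that comes close to it, and Dam alone records how accessible each site is. Stretches with a raised ratio of Dam-LaminB1 to Dam are called lamina-associated domains (LADs). They are mostly gene-poor and their genes are mostly silent. The authors segmented this ratio into LADs on mm9 and deposited 1 LAD list for each genotype, with 2 lists of differential regions (DRs), the stretches of at least 10 kb that are in LADs of WT only or of KO only. The lists give positions with no signal, score or read number, and by the study's account the KO had fewer usable reads than the WT. A gene is called PI (periphery to interior) if its span overlaps a WT-only DR by 1 base, IP (interior to periphery) if it overlaps a KO-only DR, AMB if it overlaps both, PP if it is in a LAD of both genotypes, and II if none of these holds.

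The 9 genes encode enzymes that desaturate or elongate fatty acids or related lipids, or join them to glycerol. Stearoyl-CoA desaturases (SCD) place the first double bond in saturated acyl-CoAs. FADS1 and FADS2, fatty acid desaturases of the front-end type, add further double bonds to polyunsaturated acids taken from the diet. ELOVL3 lengthens saturated and monounsaturated acyl-CoAs, and GPAM, the mitochondrial glycerol-3-phosphate acyltransferase, joins an acyl-CoA to glycerol-3-phosphate in the first step of triglyceride and phospholipid synthesis. In liver, several of these genes are known targets of SREBP-1c and respond to insulin and feeding.

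None of the 9 genes touched a LAD in either genotype. The share of the gene span in LADs was 0% in WT and 0% in KO for each of them, and of their 87 exons 0 were in a LAD. All 9 were II. On chromosome 19, 73.1% of the protein-coding genes were II, against 56.6% over all chromosomes, so most genes of this chromosome share the call. A WT LAD lay on 23.3% of the chromosome 19 genes and a KO LAD on 17.0%, and 72.5% had neither. Over all chromosomes the shares were 30.4%, 41.7% and 56.0%. PI genes made up 14.9% of the chromosome 19 genes, IP genes 4.70%, PP genes 5.66% and AMB genes 1.66%, and none of these classes held any of the 9. The call was II for all 9 genes under each of 10 other ways of placing a gene or defining a LAD or DR. Of these, only 100 kb around the middle of the gene and 10 kb added on each side look beyond the span. The rest could not change the call, since no span held a LAD. The gaps joined, of up to 50 kb, were far shorter than the stretches without LADs around the genes. A contact shorter than the shortest listed LAD, 10 kb in both lists, would not appear in them, and a contact made in fewer cells cannot be told apart from a weaker one in each cell.

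**Figure D1:**
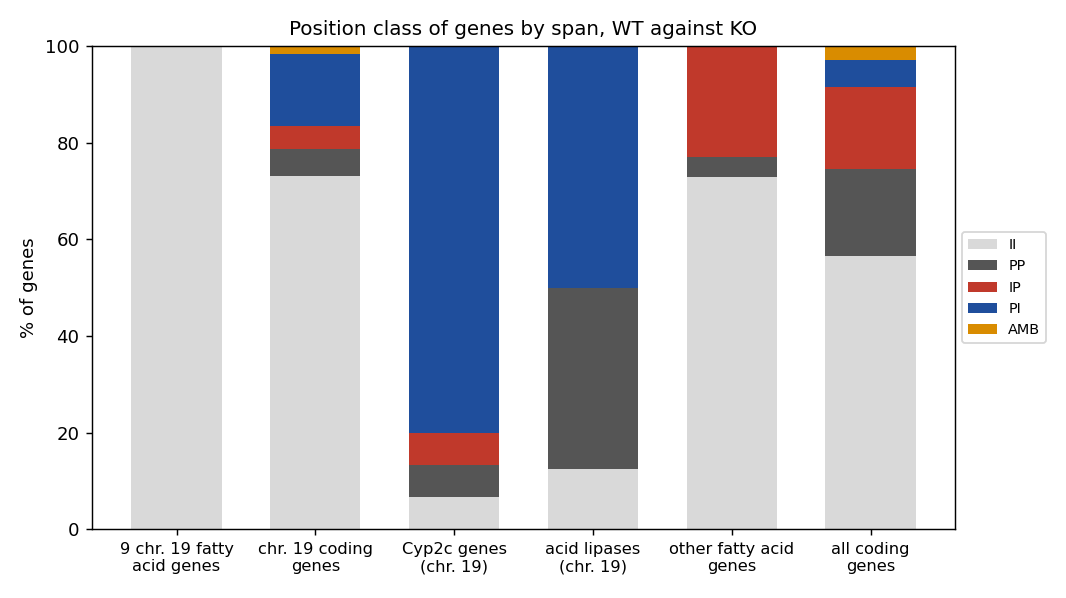
Percentage of genes (y axis) in each position class, for the 9 fatty acid genes, all 724 protein-coding genes of chromosome 19, 2 other metabolic gene clusters of that chromosome, the 48 fatty acid and glycerolipid synthesis genes on other chromosomes, and all protein-coding genes. The bar of the 9 genes is II throughout, whereas II makes up 73.1% of the chromosome 19 genes.

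Of chromosome 19 as a whole, 39.4% was in WT LADs and 18.8% in KO LADs. WT-only DRs covered 23.0% of the chromosome and KO-only DRs 2.78%. *Tm7sf2* is a gene of the same chromosome (6062821 to 6068373, minus strand) and was II, 1629 kb (WT) and 912 kb (KO) from the nearest LAD. The lists hold no measure of the deletion or of expression, so they check neither the genotype nor the hepatocyte identity of the cells. The *Fads* locus begins 4048 kb from *Tm7sf2*, the *Scd* locus 38209 kb, *Elovl3* 40138 kb and *Gpam* 49074 kb.

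What differed between the genotypes was the distance from these genes to the nearest LAD. For the *Fads* genes this difference was within the factor of 1.5 counted as unchanged. A selection of 5 of the LAD borders that set these distances, those that face the *Fads* genes and *Gpam* in both genotypes and *Scd1* in the KO, is printed here because they carry that result, each as 80 bases of the mm9 plus strand with the border in the middle and the GATC sites in capitals. GATC is the only sequence that Dam methylates, and LADs were segmented from fragments that end at GATC sites. A GATC at each border therefore follows from the method. It stood at all 484 borders of the WT LADs and all 808 borders of the KO LADs of chromosome 19. The first pair is the LAD edge nearest to the *Fads* genes, at chr19:9906985-9907064 in WT and chr19:9896516-9896595 in KO. The next is the near edge of the LAD that faces *Scd1* in the KO, at chr19:44693512-44693591, and the last pair is the edge nearest to *Gpam*, at chr19:55114532-55114611 in WT and chr19:55056365-55056444 in KO.
Fads, WT edge: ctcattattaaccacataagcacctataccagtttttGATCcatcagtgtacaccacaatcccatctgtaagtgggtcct
Fads, KO edge: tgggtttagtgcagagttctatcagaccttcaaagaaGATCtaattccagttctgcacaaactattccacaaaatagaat
Scd, KO edge: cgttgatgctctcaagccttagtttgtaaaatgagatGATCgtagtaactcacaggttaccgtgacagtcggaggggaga
Gpam, WT edge: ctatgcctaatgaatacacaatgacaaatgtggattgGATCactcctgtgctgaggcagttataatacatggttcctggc
Gpam, KO edge: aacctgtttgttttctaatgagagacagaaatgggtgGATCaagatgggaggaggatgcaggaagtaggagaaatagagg

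From the transcription start, the nearest LAD was at 87.3 to 1618 kb in WT, with a median of 816 kb, and at 145 to 612 kb in KO, with a median of 286 kb. Such distances also depend on how many LADs a list holds. On chromosome 19 the KO list had 808 LAD borders and the WT list 484, and the part this plays was not tested. *Gpam* was closest to a LAD in both genotypes and *Elovl3* farthest. In WT the order from near to far was *Gpam*, *Fads3*, *Fads2*, *Fads1*, *Scd3*, *Scd2*, *Scd4*, *Scd1* and *Elovl3*. In KO it was *Gpam*, *Scd1*, *Fads3*, *Fads2*, *Scd4*, *Scd2*, *Fads1*, *Scd3* and *Elovl3*, so the *Scd* and *Fads* genes were interleaved in the order. With no replicate library, no neighbors in these orders can be told apart by a spread.

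The 9 genes split by locus. The 4 *Scd* genes and *Elovl3* were nearer to a LAD in the KO, and *Gpam* was farther from one, at 1.67 times the WT distance. The 3 *Fads* genes were only 1.03 to 1.05 times as far, within the factor of 1.5 counted as unchanged. Of the 525 protein-coding genes of chromosome 19 that touched no LAD, 74.3% were nearer to a LAD in the KO, and over all chromosomes 83.7% of the 12518 such genes were. The shorter KO distance of the *Scd* genes and *Elovl3* is therefore the commoner pattern among genes outside LADs. The *Fads* genes and *Gpam* belong to the other 25.7% of chromosome 19, where these shares count a difference of any size. The median distance of the II genes of chromosome 19 fell from 604 kb in WT to 301 kb in KO.

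**Figure D2:**
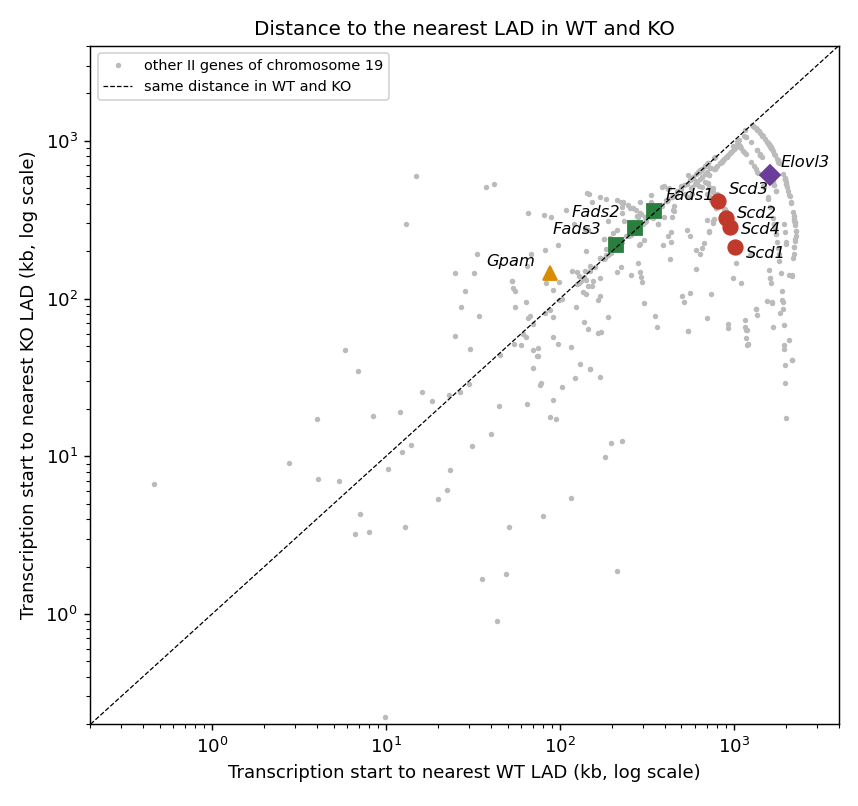
Distance from the transcription start to the nearest LAD in WT (x axis, kb, log scale) and in KO (y axis, kb, log scale). Colored symbols are the 9 genes and gray points the other II genes of chromosome 19 with both distances above 0; the dashed line marks equal distances. The *Scd* genes and *Elovl3* lie under the line, the *Fads* genes just above it and *Gpam* farther above it.

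The *Fads* cluster has the genes of the polyunsaturated fatty acid pathway. *Fads2* (chromosome 19, 10138654 to 10175993, minus strand, 12 exons) encodes the desaturase of the first step, *Fads1* (10257378 to 10271360, plus strand, 12 exons) the desaturase that follows the elongation step, and *Fads3* (10116038 to 10134161, plus strand, 12 exons) a related enzyme that acts on sphingoid bases. The transcription start of *Fads3* was 209 kb from a LAD in WT and 219 kb in KO. For *Fads2* the distance was 269 kb in WT and 279 kb in KO, and for *Fads1* 350 kb in WT and 361 kb in KO. All 3 differences are within the factor of 1.5 counted as unchanged. The distances grew by the same 10.5 kb, because the 3 genes face the same LAD edge and that edge drew back.

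This edge was the end of a WT LAD of 281 kb, from 9625850 to 9907024, with only *Stxbp3b* in it. In the KO, 4 LADs covered 62.7% of it, and the last of them ended at 9896555. The stretch lost at the edge is a WT-only DR of 10469 bp, just over the minimum length for a DR. On the other side of the *Fads* genes the next LAD began at a distance of 823 kb (WT) or 822 kb (KO). The stretch without LADs around the *Fads* genes thus measured 1187 kb in WT and 1197 kb in KO and held 36 whole protein-coding genes in both. It was the only one of the 7 LAD-free WT stretches of at least 1 Mb on chromosome 19 in which no KO LAD lay wholly inside. It was also the shortest of the 7, and the next, of 1438 kb, held 1 KO LAD. The gene next to *Fads3*, *Rab3il1*, and the gene next to *Fads1*, *Fen1*, were also II.

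The *Scd* cluster spans 204 kb, from 44277759 to 44482199. *Scd1* (44468941 to 44482199, minus strand, 6 exons) is the main desaturase of adult liver and a classical lipogenic gene. *Scd2* (44368166 to 44381354, plus strand, 6 exons) is best known from brain and from development, *Scd3* (44277759 to 44318506, plus strand, 6 exons) from skin and its glands, and *Scd4* (44407582 to 44421233, plus strand, 6 exons) from heart. The transcription start of *Scd1* was 1021 kb from a LAD in WT and 211 kb in KO, 0.207 times as far. For *Scd4* the distance was 946 kb in WT and 286 kb in KO. All 4 genes were closer to a LAD in the KO, *Scd1* by the most. For *Scd2* the distance was 907 kb in WT and 325 kb in KO, and for *Scd3*, the gene at the other end of the cluster, 816 kb in WT and 416 kb in KO. The order of the 4 genes reversed, with *Scd3* the nearest to a LAD in WT and *Scd1* the nearest in KO.

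The reversal came from the side on which the nearest LAD lay. In WT it was a LAD of 341 kb over *Hpse2*, from 43120209 to 43461347, beyond the *Scd3* end of the cluster. In KO it was a LAD of 24.7 kb from 44693552 to 44718279, beyond the *Scd1* end, that held no protein-coding gene and shared no base with a WT LAD. A second KO LAD outside every WT LAD, of 30.4 kb at *Cnnm1*, lay 750 kb from the *Scd3* end. *Pkd2l1*, next to *Scd3*, and *Wnt8b*, next to *Scd1*, were II as well, and *Wnt8b* was only 105 kb from the KO LAD against 1107 kb from a WT LAD. No LAD of either genotype fell in the 85.8 kb between *Scd1* and *Wnt8b*.

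*Elovl3* (46206387 to 46210184, plus strand, 4 exons) encodes an elongase of very long acyl chains known from liver, brown fat and skin. Its transcription start was 1618 kb from a LAD in WT and 612 kb in KO. Both distances were long for the chromosome: 87.0% of the chromosome 19 genes were nearer to a WT LAD by their span, and 84.7% were nearer to a KO LAD. The nearest KO LAD, at *Btrc* from 45580582 to 45594089, was 13.5 kb long, the second shortest of those in the surrounding stretch, and if LADs under 20 kb are left out of both lists the distance in the KO becomes 1488 kb. The last 10 bases of *Elovl3* overlap *Pitx3* (46210175 to 46222865), which was also II, as were *Nolc1* and *Gbf1* on its sides.

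The *Scd* cluster and *Elovl3* lay in the same LAD-free stretch in WT. It measured 4363 kb, from 43461348 to 47824102, the second longest of the 243 on chromosome 19, and held 84 whole protein-coding genes. In the KO, 6 LADs of 11 to 30.4 kb (median 16.3 kb) were listed wholly inside it. They overlapped *Cnnm1*, *Pax2*, *Tlx1*, *Btrc* and *Col17a1*, and 1 of them, facing *Scd1*, held no gene. With the start of a longer one at its far end, KO LADs took up 2.91% of the stretch, and those inside it came to 1.38 per Mb. The KO LADs cut the stretch so that the *Scd* genes were left in a free stretch of 1166 kb with 25 genes and *Elovl3* in one of 2164 kb with 43 genes, the second longest of the 405 in the KO. Among the 7 long WT stretches, between 0.0997% and 3.27% of the bases were in KO LADs, with a median of 1.20%, and those with the *Scd* genes and with *Gpam* were the 2 highest.

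*Gpam* (55142142 to 55201824, minus strand, 23 exons) had the shortest genomic distance to a LAD of the 9 genes in both lists. The 3′ end of the gene faces a gene desert of 1019 kb that ends at *Adra2a*, and the 5′ end faces *Tectb*, which was II. In WT, 6 LADs took up 83.4% of that desert. In KO, 11 LADs took up 23.4% of it. WT-only DRs made up 63.2% of the desert and KO-only DRs 3.47%.

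The change reached close to the gene. In WT the nearest LAD, of 28.4 kb from 55086164 to 55114571, ended 27.6 kb short of the 3′ end of *Gpam*, and none of it was in a KO LAD. A second WT LAD of 10.2 kb, 68.0 kb from the gene, was also absent from the KO list. The nearest KO LAD, of 21.9 kb from 55034503 to 55056404, lay 85.7 kb from the gene, in a gap between WT LADs, and was a KO-only DR. From the transcription start the distances were 87.3 kb in WT and 145 kb in KO, 1.67 times as far. In the 500 kb next to the 3′ end of *Gpam*, WT LADs covered 411 kb (82.2%) and KO LADs 71.2 kb (14.2%). Beyond its 5′ end no LAD of either genotype lay within 53.4 kb, up to *Tectb*, and the first one came after 2623 kb (WT) or 930 kb (KO). With the start of any annotated protein-coding transcript of *Gpam* in place of the 5′ end of the span, the shortest distances were 59.4 kb in WT and 118 kb in KO.

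**Figure D3:**
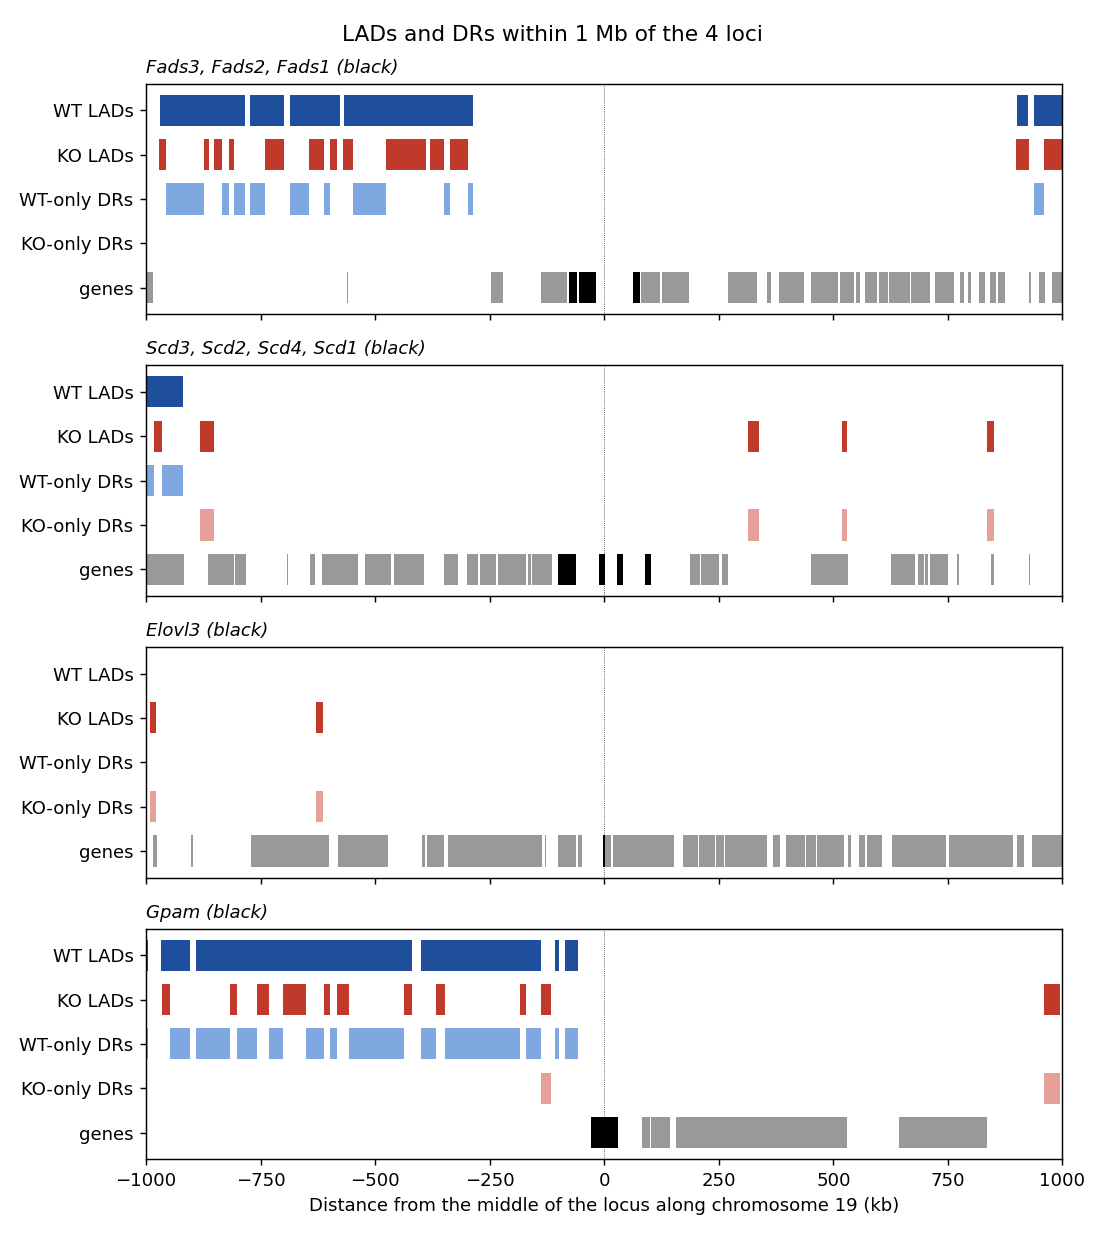
LADs, DRs and protein-coding genes within 1000 kb on each side of the middle of each locus (x axis, kb; coordinates rise to the right), in 4 panels. Dark blue bars are WT LADs, dark red bars KO LADs, light bars the DRs, black boxes the named genes and gray boxes other genes. The black boxes lie under no LAD in any panel; WT LADs crowd the left of *Gpam* and are mostly gone from the KO track.

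The LAD share of the surroundings was then compared for windows of 3 sizes. In the 200 kb centered on the gene, 8 of the 9 genes had no LAD in either genotype, and *Gpam* had 15.3% in WT and 0% in KO. For 63.0% of the chromosome 19 genes such a window held no WT LAD, and for 58.6% no KO LAD. In the 1 Mb centered on the gene, *Gpam* had 38.1% in WT LADs and 7.12% in KO LADs. *Fads3* had 28.1% and 17.7%, *Fads2* 25% and 15.7%, and *Fads1* 14.3% and 11%.

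The *Scd* genes had 0% in WT LADs in the same 1 Mb window and between 2.47% and 3.58% in KO LADs, and *Elovl3* had 0% in both. The median chromosome 19 gene had 12.6% in WT and 6.49% in KO. The drop at *Gpam*, 31.0 percentage points, compares with a median difference of -2.46 points. That median is limited by the 39.9% of genes with no WT LAD in the window, and the whole chromosome went from 39.4% to 18.8%. With 0% in WT the *Scd* genes could not fall, so the sign of their difference in this window was fixed. In the 2 Mb window the 3 *Fads* genes had 33.7% to 38.3% in WT and 17.5% to 18.8% in KO, where the median gene had 26.7% and 13.0%. At this size *Scd3* went from 8.16% in WT to 4.87% in KO, the same sign as the median, and *Scd2* had 4.33% and 4.87%. *Scd4* had 2.35% and 4.01%, *Scd1* 0% and 4%, *Elovl3* 0% and 1.36%, and *Gpam* 42.1% and 12.9%. Of the *Scd* genes only *Scd3* fell in this window, and *Scd1*, with 0% in WT, could not. There were 41 to 43 protein-coding genes in the 2 Mb around the *Fads* genes, 37 or 38 around the *Scd* genes, 41 around *Elovl3* and 7 around *Gpam*, against a median of 39. With all windows joined so that each base counts once, WT LADs covered 15.3% of the 1 Mb surroundings and KO LADs 6.58%.

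**Figure D4:**
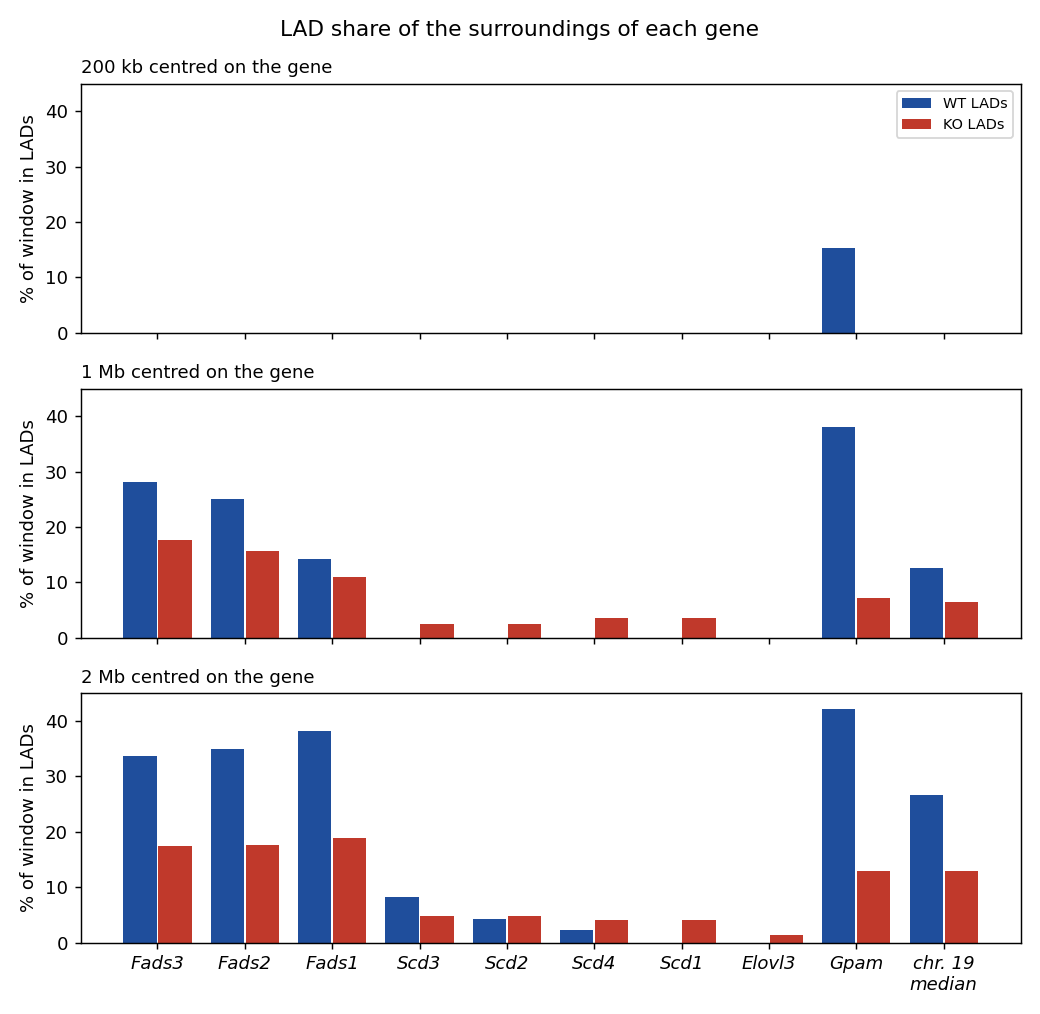
Percentage of the 200 kb, 1 Mb and 2 Mb centered on each gene (y axis) in WT LADs (blue) and KO LADs (red), with the median over all 724 protein-coding genes of chromosome 19 at the right. *Gpam* falls from 38.1% to 7.12% in the 1 Mb window, and the 4 *Scd* genes go from 0% to between 2.47% and 3.58%.

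The genes were compared in features that bear on what DamID can read. Their spans ran from 3.80 kb (*Elovl3*) to 59.7 kb (*Gpam*), with a chromosome 19 median of 14.2 kb. Their GC content ran from 44.2% in *Scd3* to 51.4% in *Fads1*, and 7 of the 9 lay above the chromosome 19 gene median of 46.5%, with *Gpam* equal to it after rounding. There was 1 GATC site in every 271 bases of *Scd1* and 1 in every 736 bases of *Fads1*, against 406 bases over the chromosome. The fragment between GATC sites that holds the transcription start was 361 bp long at *Gpam* and 2168 bp at *Fads3*, with a median of 675 bp over the chromosome 19 genes. The 10 kb around each start held between 15 sites (*Fads3*) and 38 sites (*Scd4*), and the median gene had 24. All 9 starts therefore had sites that Dam could methylate within the length of the shortest LAD.

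For each gene, the chromosome 19 genes more than 1 Mb away with the most similar pair of distances from their span to a WT and a KO LAD were looked up, on a log10 scale. The closest match to *Gpam* (27.6 kb in WT and 85.7 kb in KO) was *Hps1*, with 26.9 and 88.8 kb. That of *Fads1* (350 and 361 kb) was *Rcor2*, with 348 and 358 kb, and that of *Fads3* (209 and 219 kb) was *Noc3l*, with 203 and 224 kb. *Fads2* (232 and 242 kb) was closest to *Ganab*, with 233 and 231 kb, where the LAD came nearer instead of drawing back. Both of these differences are within the factor of 1.5. *Scd2* (907 and 312 kb) was closest to *Hhex*, with 931 and 308 kb, *Scd3* (816 and 375 kb) to *Pde6c*, with 838 and 369 kb, and *Scd4* (946 and 272 kb) to I830134H01Rik, with 967 and 288 kb. *Scd1* (1008 and 211 kb) and *Elovl3* (1614 and 612 kb) had looser matches, *Adrb1* with 1026 and 167 kb and *Frmd8* with 1823 and 694 kb.

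A pair of other metabolic clusters of chromosome 19 was placed by the same rules, as a description. Of 15 *Cyp2c* genes, which encode drug and arachidonic acid oxidizing cytochromes, 14 had a WT LAD on their span and 12 were PI. The only II gene among them, *Cyp2c44*, lies apart from the others, in the LAD-free WT stretch that holds the *Scd* genes. Its start was 642 kb from a WT LAD. Of 8 genes of the acid lipase family, 7 had a WT LAD on their span, 4 were PI and 3 PP. The median distance from the span to a WT LAD was 0 kb in both clusters and 816 kb in the 9 fatty acid genes. To a KO LAD it was 0.874 kb in the *Cyp2c* genes, 0 kb in the lipase genes and 272 kb in the 9 genes. Over all chromosome 19 genes these medians were 239 kb (WT) and 137 kb (KO). The differences were not tested, since neighbors in a cluster share their LADs.

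The other genes of the pathway were taken from a list of 48 genes of acetyl-CoA supply, fatty acid synthesis, elongation, glycerolipid assembly and their regulators, none of which is on chromosome 19. All 48 were found. Of these, 35 (72.9%) were II, 11 (22.9%) IP, 2 PP, 0 PI and 0 AMB, where over all protein-coding genes 17.1% were IP, 17.9% PP, 5.43% PI and 2.96% AMB. The IP share is near that of all genes and is no result about the list. *Fasn*, the fatty acid synthase, *Acly*, *Acacb*, *Srebf1*, *Mlxipl*, *Dgat1* and *Dgat2* were II, as were the 9 genes of chromosome 19. *Fasn* was 917 kb from a WT LAD and 36.3 kb from a KO LAD by its start, and *Srebf1*, the gene of SREBP-1, 1374 and 465 kb. Of the 35 genes without a LAD, 30 (85.7%) were nearer to one in the KO, which is near the 83.7% of all genes without a LAD.

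The 11 IP genes included *Acaca*, the acetyl-CoA carboxylase of the first committed step, with 10.2% of its span and 5 of its 56 exons in a KO-only DR that took in its transcription start. *Elovl7* had 45.8% of its span and 7 of 8 exons in KO-only DRs, *Elovl4* 40% of its span, and *Elovl6*, the elongase that makes stearate, 5.09%. Among the acyltransferases, *Agpat5* had 72.0%, *Agpat6* (the microsomal glycerol-3-phosphate acyltransferase GPAT4) 15.1% and *Agpat4* 10.6%. *Oxsm* had 25.9%, *Acss2*, which makes cytosolic acetyl-CoA from acetate, 22.1%, *Me1*, a source of NADPH, 14.4%, and *Acss1* 11.4%. No WT LAD touched 8 of the 11 genes, and the transcription start of 8 was in a KO LAD. The same counts were not made over all IP genes, so these are no result about the list. *Gpam*, *Elovl3* and the *Scd* and *Fads* genes were outside every DR.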

How the data were processed

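Lamina contacts were measured by DamID in hepatocytes of 2 genotypes, with 4 libraries of 1 each, placed in their groups by the sample titles. The authors mapped reads to mm9, computed for every DpnI fragment how far Dam-LaminB1 exceeded Dam (a log2 ratio), and segmented these values into LADs with DNAcopy at its default settings. BWA and limma are named in the submitters' processing notes, with no version. The deposited files are 2 LAD lists and 2 DR lists of positions, converted here to 1-based. Subtracting one LAD list from the other with a minimum of 10 kb gave back every DR at the same borders, 7787 of WT only and 8208 of KO only. No LAD ran past a chromosome end of NCBIM37, the same assembly as mm9, whose GENCODE annotation gave gene spans. Exons came from 1 protein-coding transcript per gene, the one with most exonic sequence, and the transcription start was the 5′ end of the span.

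Genes were classed by an overlap of at least 1 base. Overlaps, distances and windows were computed with Python 3.11.15 and figures drawn with matplotlib 3.10.9. On simulated intervals the scripts made 0 errors in 500 coverage and 500 distance cases. With 1 library pair per genotype no test was made. Numbers without a spread were counted as unchanged within a factor of 1.5. The genes named are the 9 members, *Tm7sf2*, neighbors of each locus, genes in the nearest LADs, listed lipogenic genes that overlap a DR, and for each member the 3 genes with the most similar distances, of which the first is printed. II genes of the lipogenic list and the Cyp2c and lipase clusters were named after their values were seen. The members and lists were chosen with earlier results of these data known. The DamID signal and the read depth are not analysed here. Promoter sequences are not reported here.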

Additional observations from a re-analysis of the deposited data

How the results depend on the processing

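No paired analysis was possible because each genotype has 1 pooled library pair. All 9 genes stayed II under every alternative run: LADs of at least 20 kb, LADs joined across gaps of up to 50 kb, the transcription start only, the 100 kb centered on the gene, the span plus 10 kb on each side, exons only, at least 10% or 50% of the span, DRs of at least 20 kb, and LAD differences of any length. Only the 100 kb centered on the gene and the span plus 10 kb could have changed this call. The number of IP genes in the lipogenic list moved from 11 to 6 with LADs of at least 20 kb, to 17 with the 100 kb centered on the gene, to 1 with at least 50% of the span, and to 5 with DRs of at least 20 kb. Over all 22367 genes the IP number moved in the same direction, from 3826 to 2996, 6062, 1687 and 2486. In each fall the list lost the larger share of its IP genes, from a count of only 11. Its number of PI genes went from 0 to 1 with the 100 kb centered on the gene and with 10 kb added on each side, where that of all genes went from 1215 to 2172 and 1534. In 200 kb windows the joint share in LADs was 2.74% in WT and 0% in KO, against 15.3% and 6.58% in 1 Mb. The distance of *Elovl3* to a KO LAD rose from 612 to 1488 kb with LADs of at least 20 kb, since the nearest one is shorter. The other 145 of the 154 alternative values stayed within a factor of 1.5. Many of these are counts of the 9 genes by class or LAD, most of which could not change, so 145 is no measure of stability. Among the 145 was the distance of *Elovl3* to a WT LAD, 1618 kb and, with LADs of at least 20 kb, 1810 kb. Borders are placed no more finely than GATC sites allow, and the lists hold no LAD under 10 kb and no gap under 8001 bp. Depth and genotype cannot be told apart with 1 library pair each.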
